A study of Mus musculus with 32 samples.

Results

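Cells of the Foxd1 lineage, the renal stroma, were sorted from E18.5 mouse kidneys and profiled by RNA-seq in 4 WT libraries (Foxd1GC/+;Enl+/+) and 4 T1 libraries (Foxd1GC/+;EnlT1/+). They are 8 of the 32 samples of a study of ENL mutations found in Wilms tumor, a childhood kidney cancer, and were chosen by their names in the sorted Foxd1 count table. Foxd1GC is a knock-in of a GFP-Cre fusion that abolishes Foxd1 function, so all 8 libraries, WT included, carried only 1 working Foxd1 allele. Cre acts in Foxd1+ stromal progenitors, and all libraries also carried the LSL-tdT reporter, which labels these cells and their descendants with tdTomato (tdT). The sort took tdT+ cells after collagenase digestion and did not divide the stroma into its parts. In T1 mice Cre also switched on a mutant Enl allele, heterozygous and under the endogenous promoter of Mllt1, the gene that encodes ENL. Mutant and control embryos came from different matings, so genotype and litter cannot be told apart. The sources used here do not say whether a library came from a single embryo, and p-values measure only the spread between libraries.

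The renal stroma arises from Foxd1+ progenitors that surround the nephron progenitors under the capsule, and gives rise to cortical and medullary fibroblasts, mesangial cells, pericytes, vascular smooth muscle and renin cells. It signals to neighboring nephron progenitors and ureteric tips, and stromal transcription factors such as FOXD1 and TCF21 are needed for normal branching and nephron formation. ENL reads acylated histones through its YEATS domain and brings elongation factors to its target genes, among which the Hox genes are well known.

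The site of the mutation is shown because every comparison rests on it. In the annotated Mllt1 transcript (GENCODE, GRCm38), residues 115 to 117 of 547 are asparagine, histidine and leucine (NHL), and T1 inserts these 9 bases once more. They lie in exon 4 of 12, on the minus strand, at chr17:56905781-56905789. The 39 bases around them, chr17:56905766-56905804, read 5′ to 3′ on the coding strand with the NHL codons in capitals:
Mllt1 reference: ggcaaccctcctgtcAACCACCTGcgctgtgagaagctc
The gene counts do not tell the mutant transcript from the normal one. Mllt1 stood at 27.2, 38.0, 35.4 and 45.2 CPM (counts scaled to the library total) in WT and at 31.7, 37.9, 29.8 and 32.9 CPM in T1. The groups overlapped, and the log2 fold change was -0.13 ± 0.14 (SE; adjusted p = 0.643). Foxd1 was present in all libraries, at 57.4, 70.7, 65.5 and 77.3 CPM in WT and 64.4, 76.1, 72.3 and 90.3 CPM in T1. These groups overlapped as well (log2 fold change 0.17 ± 0.11, adjusted p = 0.375).

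The libraries were shallow, with 2557443 to 3508381 counts over genes, and 20734 to 21427 genes had a count. All 8 libraries held over 100 counts of Y-linked genes and at most 3 of Xist. Profiles correlated at r = 0.974 to 0.985 within a genotype and at 0.960 to 0.967 between genotypes. All 13 pan-stroma markers were tested, and their summed level was 10483 to 14020.5 CPM in WT and 10798 to 12151 CPM in T1, against 7123 to 8648 CPM in 3 whole WT kidneys. Markers of other kidney cells were present too, and their values in the sorted libraries stand beside the results they touch. Against 3 whole WT kidneys, tubule and ureteric markers were far lower. Macrophage and other leukocyte markers were not, at 184 to 456 CPM in WT and 356 to 512 CPM in T1 against 178 to 195 CPM. Nephron progenitor markers were at 288 to 372 CPM in WT against 457 to 491 CPM, and podocyte markers at 615 to 1047 CPM against 2212 to 2270 CPM. In these bulk sorts, fewer cells of a type and less RNA per cell cannot be told apart.

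A gene was called when its adjusted p was under 0.05 and its fold change over 1.5. Of 12717 genes tested, 462 were called higher (3.63% of those tested) and 277 lower (2.18%) in T1 cells. In 431 of the former every T1 library lay above every WT library (3.39%), and in 238 of the latter below (1.87%). Over all genes tested, called or not, every T1 library lay above every WT library in 8.14% and below in 7.42%. The median log2 fold change over them was -0.004. Of the called genes, 233 rose and 114 fell by more than 2-fold, and 52 rose and 15 fell by more than 4-fold. Protein-coding genes made up 440 of those that rose and 269 of those that fell. The shares of 3.63% higher and 2.18% lower are the background for the counts of called genes in the lists below.

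**Figure D1:**
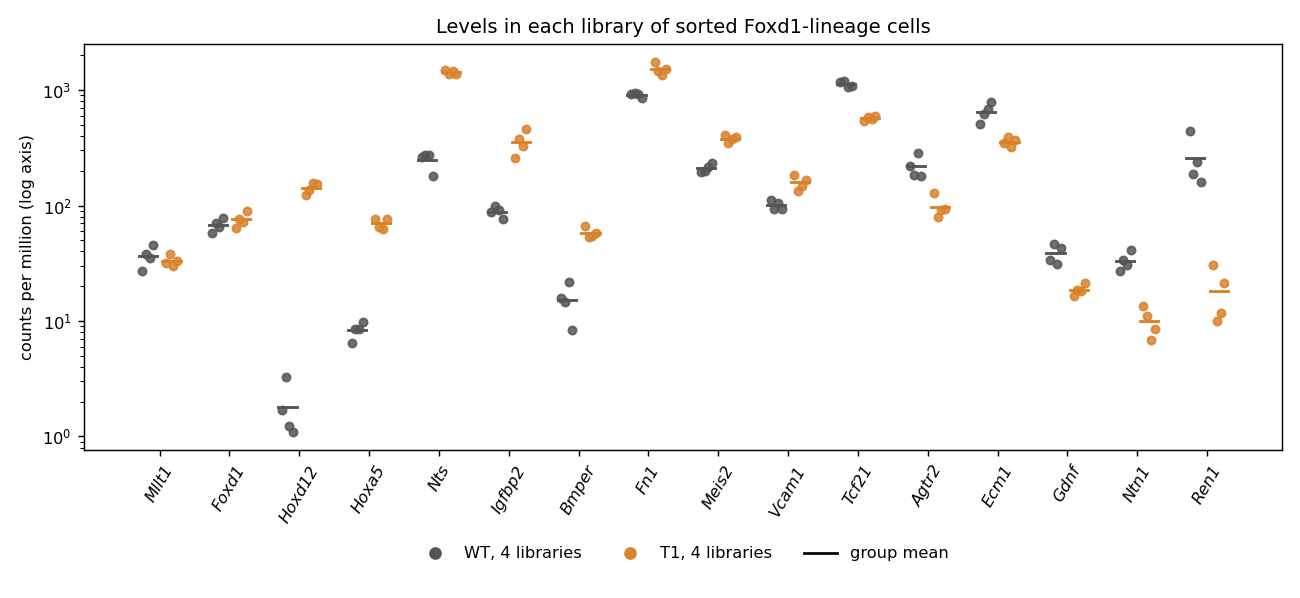
CPM on a log axis in each of 4 WT and 4 T1 libraries of sorted Foxd1-lineage cells; points are libraries and short lines are group means. Mllt1 and Foxd1 overlap between genotypes, whereas the T1 points of Hoxd12, Hoxa5, Nts and Igfbp2 lie above and those of Tcf21 and Ren1 below every WT point.

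The Hox genes, which specify position along the body axis and in some posterior members are required for kidney formation, changed by cluster. In the Hoxa cluster 8 of 8 tested genes rose (median log2 fold change 1.88), and in the Hoxc cluster 6 of 7 rose (median 1.08). In the Hoxa cluster 3 more genes were not tested, and 7 rose with a filter of 30 counts. Genes near silent in WT, such as Hoxa6 and Hoxd12, passed the low-count filter through their T1 libraries alone. For such genes a rise was the only change that could be seen. In the Hoxd cluster 2 of 6 rose (median 0.12). In the Hoxb cluster 0 of 7 were called (median 0.23) by edgeR's quasi-likelihood test, and also 0 by the edgeR exact test and by DESeq2, and 0 of these genes had an unadjusted p under 0.05. Of the 7 Hoxb genes 5 had a positive log2 fold change. In 2 of them every T1 library lay above every WT library, as in 8.14% of all genes tested. No gene of the 4 clusters was called lower.

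Hoxd12 had the largest fold change among called genes at 10 CPM or more. It was close to silent in WT cells, with 6, 11, 3 and 3 counts, and reached 332, 406, 432 and 467 counts in T1. As levels these were 1.81 ± 0.988 CPM (SD, n = 4) and 142 ± 15.2 CPM (n = 4), a log2 fold change of 6.20 ± 0.18 (adjusted p = 1.06e-13). Every T1 library was far above every WT library, whereas Hoxd8 to Hoxd11 were not called. Hoxd11 stood at 80.4, 80.7, 81.3 and 84.6 CPM in WT and 112, 90.2, 107 and 105 CPM in T1. The groups did not overlap, but the log2 fold change of 0.34 ± 0.08 (adjusted p = 0.0105) was under the fold threshold. Hoxd8, Hoxd9 and Hoxd10 had log2 fold changes of -0.21 ± 0.11, -0.10 ± 0.13 and -0.27 ± 0.08. Hoxd13, the other neighbor of Hoxd12, was too low to be tested, with 3, 1, 1 and 0 counts in WT and 11, 8, 13 and 8 in T1, and these did not overlap. Hoxd4 rose by 1.51 ± 0.29, although 52.3% of its exonic length is shared with other annotated genes, and it was not tested with a filter of 30 counts.

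In the Hoxa cluster, Hoxa5 went from 6.45, 8.54, 8.54 and 9.84 CPM to 76.7, 65.7, 63.2 and 76.6 CPM, without overlap (log2 fold change 3.09 ± 0.14, adjusted p = 5.84e-11). Hoxa6 rose from 2.096 ± 1.70 to 19.8 ± 1.83 CPM (3.35 ± 0.31). Hoxa9 stood at 34.5, 36.2, 32.9 and 28.8 CPM in WT and 113, 113, 118 and 121 CPM in T1 (1.80 ± 0.09), again apart. Hoxa10 had 237, 259, 241 and 236 CPM in WT and 403, 438, 404 and 429.5 CPM in T1, the smallest fold of the cluster (0.78 ± 0.06). Hoxa11 rose by 1.105 ± 0.09 and its antisense transcript Hoxa11os by 1.93 ± 0.13. They share 35% and 47.6% of their exonic length with other genes, and since counting ignored strand, reads of a gene and its antisense partner cannot be told apart. Hoxa13 was not tested, with 0, 1, 0 and 0 counts in WT and 1, 3, 3 and 4 in T1.

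In the Hoxc cluster Hoxc10 rose from 90.8, 94.3, 95.2 and 95.2 CPM to 202, 221, 181 and 192 CPM without overlap (log2 fold change 1.09 ± 0.08, adjusted p = 3.63e-08). Hoxc11 rose by 2.06 ± 0.20, and Hoxc5, the member that was not called, had 0.29 ± 0.27. Of 14 tested noncoding and flanking genes of the clusters, 5 rose and 0 fell, and 3 rose with a filter of 30 counts. Those that rose were the noncoding genes Hoxaas3, Hoxa11os, Hoxaas2, Hoxb5os and Hoxd3os1. Hoxb5os overlapped between groups and lost its call without T1 replicate 2 or T1 replicate 4, at 1.07 and 0.99. The genes beside the clusters, among them Skap2 (-0.26 ± 0.12), Lnpk (-0.06 ± 0.15) and Calcoco1 (0.05 ± 0.09), were not called.

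**Figure D2:**
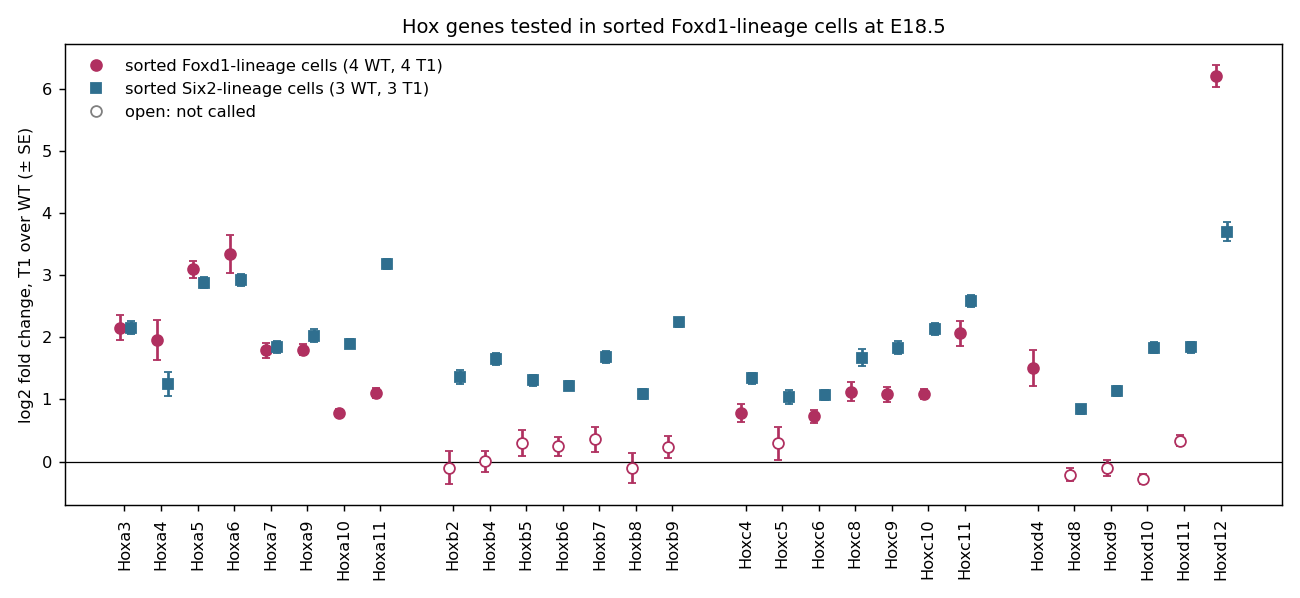
Log2 fold change, T1 over WT, with SE for the 28 Hox genes tested in sorted Foxd1-lineage cells (circles), ordered by cluster, with sorted Six2-lineage cells of the same age (squares); filled symbols are called. All 8 Hoxa circles and none of the 7 Hoxb circles are filled, and Hoxd12 stands at 6.20 while Hoxd8 to Hoxd11 lie near 0.

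The start-site windows of 3 genes are printed because these genes lead the changes described here. Each is the RefSeq window of 300 bases, 250 before and 50 after the start, in GRCm38.p6, with CG pairs in capitals:
Hoxd12 promoter: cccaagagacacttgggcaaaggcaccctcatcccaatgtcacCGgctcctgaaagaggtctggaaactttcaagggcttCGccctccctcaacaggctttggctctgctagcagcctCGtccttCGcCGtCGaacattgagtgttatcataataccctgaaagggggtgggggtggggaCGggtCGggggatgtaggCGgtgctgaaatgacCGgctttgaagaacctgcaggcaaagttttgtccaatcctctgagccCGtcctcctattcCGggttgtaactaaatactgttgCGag
Hoxa5 promoter: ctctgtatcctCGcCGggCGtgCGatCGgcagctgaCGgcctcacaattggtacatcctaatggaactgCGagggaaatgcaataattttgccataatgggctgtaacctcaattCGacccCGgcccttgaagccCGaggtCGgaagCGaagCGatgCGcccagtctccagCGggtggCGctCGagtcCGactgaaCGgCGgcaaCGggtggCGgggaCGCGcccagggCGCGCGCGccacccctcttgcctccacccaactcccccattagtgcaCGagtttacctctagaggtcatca
Ren1 promoter: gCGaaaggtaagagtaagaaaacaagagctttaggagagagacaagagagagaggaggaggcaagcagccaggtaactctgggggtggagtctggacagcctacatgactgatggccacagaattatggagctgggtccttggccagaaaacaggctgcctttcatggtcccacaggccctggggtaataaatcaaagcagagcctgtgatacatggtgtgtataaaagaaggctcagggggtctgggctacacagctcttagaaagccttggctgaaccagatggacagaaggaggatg
They lie at chr2:74674763-74675062 on the plus strand, chr6:52204538-52204837 on the minus strand and chr1:133350424-133350723 on the plus strand. The Hoxd12 window held 13 CG pairs, a number reached by 37.9% of the 32851 windows in the table. The Hoxa5 window held 29, reached by 12.9%, and the Ren1 window held 1, reached by 94.6%. The CG pair reads the same on both strands, and these counts are a description of the sequence only.

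Of 35 tested stromal transcription factors, 4 rose and 4 fell (median -0.09). Tcf21, a bHLH factor of the renal stroma and podocytes, stood at 1176, 1205, 1073 and 1090.5 CPM in WT and at 544, 584, 564 and 602 CPM in T1. All T1 libraries lay below, with a log2 fold change of -0.99 ± 0.06 (adjusted p = 1.35e-08). Meis2, a cofactor of HOX proteins, moved the other way, from 196, 197, 218 and 236 CPM to 406, 349, 374 and 392 CPM without overlap (0.85 ± 0.08, adjusted p = 4.85e-07). Gata6 fell by 0.86 ± 0.11 on the log2 scale, and Zfhx4, Osr2 and Osr1 rose by 3.18 ± 0.27, 1.73 ± 0.18 and 0.84 ± 0.17. Twist1 and Alx1 completed those that fell, and both were sensitive to single libraries. Twist1 (-0.71 ± 0.21) was not called when any of WT replicates 3 and 4 or T1 replicates 2, 3 and 4 was left out (-0.72 to -0.57). Alx1 (-0.62 ± 0.10) was not called without WT replicate 2, T1 replicate 2 or T1 replicate 4 (-0.58 to -0.56), and the count that fell was 2 without T1 replicate 2 or T1 replicate 4.

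The stromal zones were described by lists of cortical, medullary and mesangial genes. Of 16 cortical and capsular genes 4 fell and 1 rose (median -0.26). Ntn1, which encodes the guidance cue netrin-1, stood at 27.2, 33.9, 30.5 and 41.6 CPM in WT and at 13.4, 11.1, 6.90 and 8.47 CPM in T1, all below (-1.73 ± 0.19, adjusted p = 4.06e-06). Fibin, a secreted protein gene, fell from 71.0 ± 10.1 to 22.4 ± 5.11 CPM (-1.66 ± 0.14), Clca3a1 by 1.32 ± 0.18 on the log2 scale and the matrix gene Ecm1 by 0.86 ± 0.11. In these 4 genes the groups did not overlap. Gdf10, the member that rose, overlapped between groups and lost its call when any of WT replicates 1, 2 and 4 or T1 replicates 1, 3 and 4 was left out, with log2 fold changes from 0.51 to 0.63.

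Of 14 medullary genes 3 rose and 1 fell (median 0.11), with 2 that fell without T1 replicate 1 and 0 without WT replicate 2, T1 replicate 2 or T1 replicate 4. Nts, which encodes the neuropeptide neurotensin, had 261, 273, 276 and 179 CPM in WT against 1495, 1371, 1476 and 1385 CPM in T1. No library overlapped, and the log2 fold change was 2.53 ± 0.10 (adjusted p = 2.14e-11). Bmper, a BMP-binding regulator, rose from 15.7, 14.7, 22.0 and 8.39 CPM to 66.7, 53.3, 54.5 and 58.0 CPM (1.94 ± 0.17). Wnt4, a Wnt ligand that drives nephron formation and is also made by medullary stroma, rose from 30.8, 38.3, 27.2 and 20.4 CPM to 46.6, 47.0, 44.7 and 49.5 CPM without overlap. Its log2 fold change was 0.67 ± 0.14 (adjusted p = 0.00353), and 0.54, under the fold threshold, without WT replicate 4.

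The mesangial and renin lineage held the largest decrease among called genes at 10 CPM or more. Ren1 encodes renin, the enzyme that starts the angiotensin cascade, and had 1592, 640, 587 and 443 counts in WT against 82, 30, 32 and 65 counts in T1. The levels were 259 ± 129 CPM and 18.4 ± 9.499 CPM, without overlap, and the log2 fold change was -3.83 ± 0.32 (adjusted p = 2.42e-07). Without WT replicate 1, the highest library, it was -3.42. Some mouse strains carry a second renin gene, and reads of such a copy could not be separated here. Of 16 tested genes of this list 7 fell and 1 rose (median -0.57). The angiotensin receptor genes Agtr1b and Agtr2 fell by 1.29 ± 0.20 and 1.15 ± 0.14 on the log2 scale, whereas Agtr1a had -0.01 ± 0.12. Agtr2 stood at 219.7, 184, 288 and 180.5 CPM in WT and 128, 79.8, 91.2 and 92.6 CPM in T1, so the groups were apart. Akr1b7, a marker of renin cells, fell by 1.52 ± 0.26, with 27.2% of its exonic length shared with other genes.

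Pdgfrb, the receptor by which mesangial cells and pericytes are recruited, fell from 525 ± 28.7 to 319.6 ± 13.3 CPM (-0.72 ± 0.07, adjusted p = 5.56e-07). Gucy1a1, a subunit of soluble guanylate cyclase, fell from 474 ± 19.8 to 232 ± 9.82 CPM (-1.03 ± 0.06). Its partner subunit Gucy1b1 fell by 0.64 ± 0.11 on the log2 scale, a call lost on fold size without WT replicate 4 or T1 replicate 2, at -0.56 and -0.57. Des, which encodes desmin, was the member that rose (0.68 ± 0.11, and 0.58, not called, without T1 replicate 4), and 2 members rose without WT replicate 4. Among 20 pericyte and smooth muscle genes 3 fell and 0 rose (median -0.16). These were Myh11, smooth muscle myosin (-1.02 ± 0.17), and both subunit genes of a vascular potassium channel, Kcnj8 (-0.86 ± 0.08) and Abcc9 (-0.59 ± 0.10). Abcc9 sat at the fold threshold and was not called when any of WT replicates 1, 3 and 4 or T1 replicates 2 and 4 was left out, at -0.58 to -0.52. Of 10 podocyte markers, which mark the other main glomerular cell, 1 fell (Clic5, -0.63 ± 0.17, not called without WT replicate 1 at -0.44, or without T1 replicate 1 or 4 at -0.59 and -0.52). Their sum was 615 to 1047 CPM in WT and 621 to 813 CPM in T1. Of 12 endothelial markers 0 were called, and their sum was 344 to 633 CPM in WT and 426 to 561 CPM in T1.

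The 8 stromal genes, 6 commitment genes and 7 ligand genes described next were named by the study with these same libraries in view, so their counts are no independent evidence of direction. Several of them also stand in other lists, so counts there are not independent of that choice either. They include all 3 medullary genes that rose (Nts, Bmper and Wnt4). Ntn1 and Ecm1 of the cortical list and Agtr2 and Pdgfrb of the mesangial list are also among them. Of the stromal genes 4 rose (Nts, Meis2, Fn1, Vcam1) and 4 fell (Agtr2, Tcf21, Ecm1, Pdgfrb). Vcam1, an adhesion molecule, had 111, 93.1, 106 and 93.7 CPM in WT and 185.1, 135, 149 and 166 CPM in T1 (0.65 ± 0.10, and 0.57, under the fold threshold, without T1 replicate 1). The commitment genes all rose: Bmper, Osr2, Sfrp2 (1.26 ± 0.15), Frzb (1.16 ± 0.15), Tmem100 (1.07 ± 0.15) and Wnt4. Of the ligand genes Fn1 rose and Ntn1 and Gpc3 fell. Thbs1 and Igf2 had log2 fold changes of 0.52 ± 0.08 and 0.56 ± 0.10 with no overlap between groups, just under the fold threshold. Each passed it in some fits with a library left out, Thbs1 at 0.59 without WT replicate 1 and Igf2 at 0.70 and 0.60 without WT replicate 3 and T1 replicate 1. Igf2 shares 64.5% of its exonic length with other genes. Col4a2 and Igfbp4 stood at 0.07 ± 0.10 and -0.05 ± 0.07.

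Several pathways held called genes that encode secreted signals. Over all genes tested 3.63% were called higher and 2.18% lower. In the BMP and TGF-beta pathway 7 of 35 genes rose and 1 fell (median 0.07), and 2 fell without WT replicate 3 or T1 replicate 2. The ligand subunit Inhba (2.47 ± 0.23), the antagonist Nog (1.54 ± 0.32) and the receptor Bmpr1b (0.99 ± 0.17) rose, while the ligand Bmp6 fell by 2.18 ± 0.20 on the log2 scale. In the Wnt pathway 6 of 41 genes rose and 2 fell (median -0.10). The ligands Wnt6 (1.30 ± 0.30) and Wnt4 and the receptor Fzd5 (1.01 ± 0.23) rose. Regulators of the pathway moved both ways: Sfrp2, Frzb and Dkk2 (0.74 ± 0.13) rose, and Nkd2 (-1.29 ± 0.16) and Dkk1 (-1.18 ± 0.21) fell. In the FGF pathway 1 of 19 rose and 2 fell, the ligand Fgf2 by 1.29 ± 0.21 on the log2 scale, and the count that fell was 1 without WT replicate 2 or any of T1 replicates 2, 3 and 4. The count that rose was 2 without WT replicate 3. These FGF counts are too few to set apart from the shares over all genes tested.

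Of 14 signals and factors by which stroma and mesenchyme act on the ureteric bud, 4 fell and 0 rose (median -0.32). Gdnf, the ligand that drives ureteric branching, stood at 33.9, 46.3, 30.9 and 42.7 CPM in WT and 16.4, 18.45, 18.2 and 21.2 CPM in T1. The groups did not overlap, and the log2 fold change was -1.05 ± 0.15 (adjusted p = 6.99e-05). The other members that fell were Agtr2, Tcf21 and Ecm1, which the study had named with these libraries in view. Gdnf is also a nephron progenitor gene, and the 9 markers of that list summed to 288 to 372 CPM in WT and 281 to 297 CPM in T1, with 1 called higher (Osr1), 1 lower (Gdnf itself; 2 without WT replicate 3 or T1 replicate 1) and Six2 at a log2 fold change of 0.04 ± 0.20. Their part in the result was not tested.

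In the IGF pathway Igfbp2, an IGF-binding protein, was the 1 of 14 genes that was called. It had 87.7, 98.1, 91.1 and 76.6 CPM in WT and 259, 374, 329.9 and 462 CPM in T1, all above (2.01 ± 0.13, adjusted p = 1.61e-08). Without WT replicate 3 or T1 replicate 1 the list had 2 that rose. As a count for the list, this is too few to set apart from the 3.63% called higher over all genes tested. In the retinoic acid pathway 3 of 18 rose and 1 fell. The binding proteins Crabp1 (from 7.87 ± 0.737 to 41.7 ± 4.15 CPM, 2.41 ± 0.14) and Crabp2 (0.94 ± 0.15) and the receptor Rxrg (1.33 ± 0.29) rose. The count that fell was 0 without T1 replicate 3 and 2 without T1 replicate 1. Of 41 axon guidance genes 8 rose and 3 fell (median 0.14), the former led by Ntng1 (1.97 ± 0.14), Slit3 (1.17 ± 0.19) and Plxna2 (1.01 ± 0.10) and the latter by Ntn1 and the SLIT receptor gene Robo1 (-1.11 ± 0.12). Without WT replicate 4 the count that rose was 5. Of 12 Hedgehog and 15 Notch pathway genes 0 were called.

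In the matrix, 5 of 56 glycoprotein and proteoglycan genes rose and 7 fell (median 0.02), and of 32 collagens 3 rose and 3 fell (median 0.05). Fn1, which encodes fibronectin, stood at 925, 947, 923 and 852 CPM in WT and at 1737, 1467, 1358 and 1529 CPM in T1 (0.74 ± 0.07, adjusted p = 1.32e-06), with no overlap. Vcan, Lum, Fmod and Cilp also rose, Vcan from 171 ± 7.33 to 262 ± 9.64 CPM. Gpc3, a membrane proteoglycan, fell from 1178 ± 119.9 to 709 ± 55.3 CPM (-0.73 ± 0.08), and Ccn1, a matricellular protein, from 578 ± 43.9 to 296 ± 20.5 CPM (-0.97 ± 0.07). Among the collagens Col23a1 and Col11a1 rose by 1.41 ± 0.12 and 1.00 ± 0.09, and Col4a3 and Col4a4, chains of the mature glomerular basement membrane, fell by 1.04 ± 0.20 and 1.06 ± 0.17 on the log2 scale. Of 28 integrins, cadherins and other adhesion genes 7 rose and 0 fell (median 0.16; 1 fell without WT replicate 3 or T1 replicate 1), among them Itga2 (2.24 ± 0.21), Itga4 (1.41 ± 0.14), Cdh3 (1.08 ± 0.14) and Cdh6 (0.71 ± 0.11). Cdh9, a cadherin that also rose, had 0, 1, 0 and 0 counts in WT and 30, 37, 18 and 28 in T1. It passed the low-count filter through T1 libraries alone, so it could only be seen to rise.

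**Figure D3:**
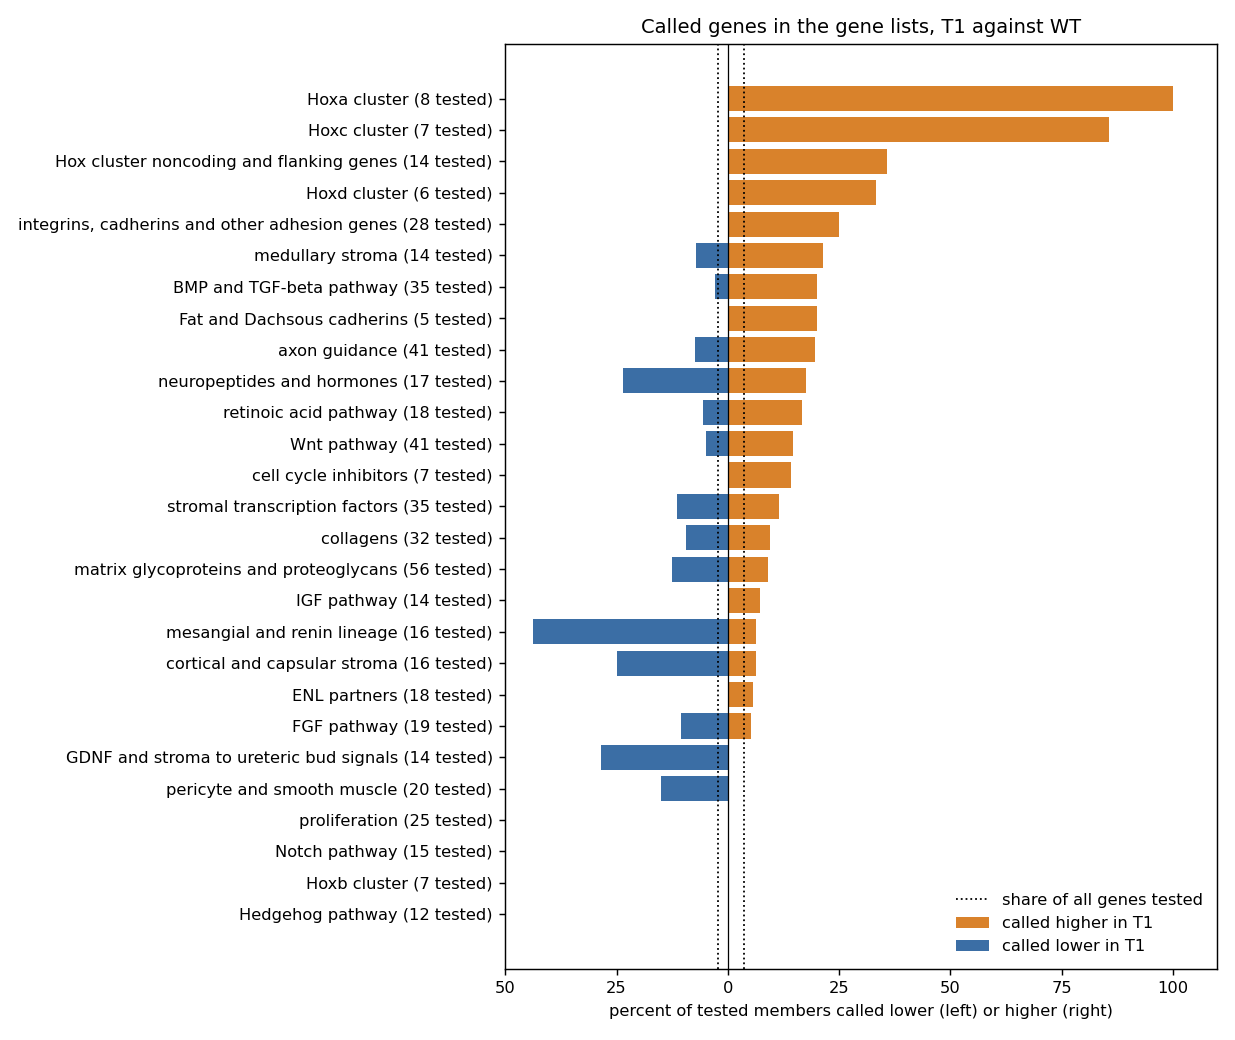
Percent of the tested members of each gene list called higher (right) or lower (left) in T1, with the share of all 12717 genes as dotted lines. Hoxa, with 8 of 8 tested members, and the study's commitment genes, chosen by the study on these libraries, with 6 of 6, reach furthest to the right. The mesangial and renin list had 7 of 16 lower, and proliferation, Notch, Hedgehog and Hoxb show no bar.

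Of 25 proliferation genes 0 were called, with a median of -0.05 and log2 fold changes from -0.37 to 0.22. Among 7 cell cycle inhibitors Cdkn1a rose (0.76 ± 0.15, and 0.56, not called, without WT replicate 2). Of 18 partners of ENL in elongation and chromatin complexes the 1 called was Ell2, an elongation factor (0.98 ± 0.23). Over all genes tested 3.63% were called higher.

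Outside the lists, the largest increases at 10 CPM or more included Sez6l2 (2.21 ± 0.613 to 36.1 ± 1.64 CPM, log2 fold change 4.05 ± 0.19), Ccdc85a (3.15 ± 0.30), Cbln2 (2.99 ± 0.27), the serotonin receptor gene Htr2b (2.67 ± 0.30) and Dner (2.47 ± 0.21). Sez6l2 passed the low-count filter through its T1 libraries alone, so it too could only be seen to rise. By CPM, which is not corrected for length, the highest gene that rose was Cox6c, a subunit of cytochrome c oxidase, from 979 ± 46.6 to 1637 ± 38.8 CPM, and the highest that fell was Fos, an immediate early factor, from 1484 ± 138 to 907 ± 113 CPM. Fos belongs to a list of 24 genes that dissociation itself can induce, of which 3 fell and 1 rose (median -0.22). Without WT replicate 3, 2 fell and 3 rose, and without WT replicate 4 or T1 replicate 3, 2 fell and 2 rose. By DESeq2 3 fell and 0 rose. Called or not, every T1 library lay below every WT library in 7 of the 24 and above in 2. The shares over all genes tested were 7.42% and 8.14%. The list summed to 11419.5 to 13229.5 CPM in WT and 8674 to 10451.5 CPM in T1, without overlap, against 849 to 931 CPM in whole WT kidneys. The part of dissociation in these values was not tested. The largest decreases after Ren1 were in Aqp2 (33.7 ± 8.35 to 2.81 ± 0.628 CPM, -3.59 ± 0.24), Lbhd2 (-2.98 ± 0.31), Cyp27b1 (-2.64 ± 0.46) and Cyp2j5 (-2.52 ± 0.52).

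Some markers of tubular cells fell in T1 libraries. Aqp2, the water channel of collecting duct cells, was the 1 of 9 tested ureteric markers that was called. The list of 14 summed to 217 to 296 CPM in WT and 183 to 231 CPM in T1. Of 8 tested proximal tubule markers 4 fell and 0 rose (median -1.05), and the list of 10 summed to 164 to 421 CPM in WT, 84.3 to 145 CPM in T1 and 3460 to 3669 CPM in whole WT kidneys. Without WT replicate 3 or WT replicate 4 the count that fell was 7. Of 6 tested loop and distal tubule markers 4 fell (median -1.12), 1 without WT replicate 1, 2 without WT replicate 2, T1 replicate 2 or T1 replicate 3, and 0 with a filter of 30 counts. That list summed to 50.3 to 140.1 CPM in WT and 23.6 to 53.3 CPM in T1. No marker of these lists was at 0 in all 8 libraries, and WT replicate 1 held the highest sum of the proximal tubule, loop, ureteric and podocyte lists. The part of these cells in the decrease of Aqp2, Cyp27b1, Cyp2j5 or any other gene was not tested.

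Some leukocyte markers rose in T1 libraries. Of 14 macrophage and other leukocyte markers 7 rose and 0 fell (median 0.73), and 11 rose without WT replicate 1. Mrc1 and Adgre1, markers of tissue macrophages, rose by 1.09 ± 0.21 and 1.08 ± 0.20, and the complement genes C1qb and C1qc by 0.99 ± 0.19 and 0.93 ± 0.18. Ptprc and Csf1r, which define leukocytes and macrophages, had 0.43 ± 0.36 and 0.47 ± 0.21 and were not called. The list summed to 184 to 456 CPM in WT and 356 to 512 CPM in T1, which overlap. Apoe, which macrophages and other cells express, rose from 238 ± 75.7 to 420.3 ± 20.2 CPM (0.82 ± 0.14). The part of leukocytes in the rise of other genes was not tested.

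**Figure D4:**
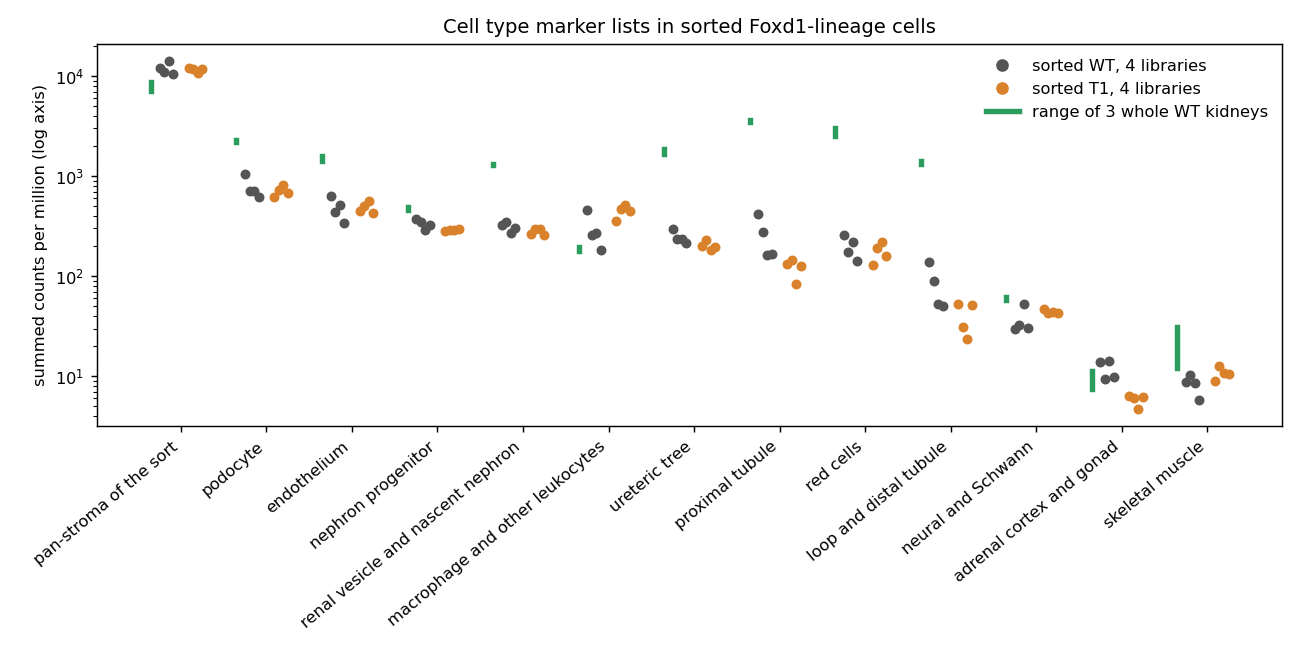
Summed CPM of the marker lists on a log axis in each sorted WT and T1 library, with the range of 3 whole WT kidneys in green. Pan-stroma markers lie above the whole kidney, leukocyte markers at or above it, and those of proximal tubule, loop and ureteric tree far below it. The T1 sums of proximal tubule lie below all WT sums.

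To ask whether stroma and nephrogenic cells respond alike, the T1 effect was set beside that in tdT+ cells sorted from E18.5 kidneys of the Six2 lineage (3 WT and 3 T1 libraries), whose Cre is expressed in nephron progenitors. These were separate tables of very different depth, 76510702 to 92026288 counts in the Six2 libraries, and the difference of the effects was tested as an interaction, called at an adjusted p under 0.05. Of 14869 genes, 1226 had a higher effect in stroma (8.25%) and 1135 a lower one (7.63%). With library size as the only scaling the split was 935 and 1555. Of 453 genes called higher in stroma and tested in both, 157 were also called higher in Six2-lineage cells, 34.7% of the stromal list and 21.9% of the 716 on the Six2 list, and 41 were called lower there (9.05% and 5.91%). Of 272 called lower in stroma, 56 were lower in Six2-lineage cells too (20.6% and 8.07%) and 56 were higher there (20.6% and 7.82%). Cell type markers in the Six2 sort differed by genotype. Podocyte markers summed to 4084 to 4655 CPM in Six2 WT and 845 to 934 CPM in Six2 T1. Nephron progenitor markers were at 651 to 835 CPM and 316 to 379 CPM, and red cell markers at 102 to 203 CPM and 1492 to 2201 CPM. The part of cell make-up in the lineage differences was not tested.

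Over all genes tested in Six2-lineage cells 6.14% were called higher and 5.54% lower. There, 8 of 9 Hoxb and 8 of 8 Hoxd genes rose (medians 1.36 and 1.66). The effect was smaller in stroma for 8 of 8 Hoxb genes, 4 of 8 Hoxd genes, 3 of 7 Hoxc genes and 2 of 11 Hoxa genes. Hoxd10 went from 44.1 ± 5.85 to 157 ± 13.1 CPM (n = 3 each) in Six2-lineage cells, and its effect differed by -2.13 ± 0.13 on the log2 scale (interaction adjusted p = 3.28e-10, edgeR). For Hoxd11 the difference was -1.52 ± 0.13, for Hoxd9 -1.26 ± 0.15 and for Hoxd8 -1.07 ± 0.12. Hoxd12 was the reverse: it went from 5.55 ± 1.29 to 72.0 ± 9.31 CPM in Six2-lineage cells, and its effect was larger in stroma by 2.52 ± 0.35 (adjusted p = 2.21e-05). For Hoxa11, Hoxa10 and Hoxc10 the differences were -2.09 ± 0.13, -1.13 ± 0.10 and -1.07 ± 0.12. For Hoxa5 it was 0.20 ± 0.18 (adjusted p = 0.523) and not called.

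Other genes differed in size or in direction. Fibin fell in stroma and went from 4.34 ± 0.992 to 22.5 ± 0.891 CPM in Six2-lineage cells, a difference of -4.05 ± 0.22 (adjusted p = 4.53e-11). Osr1, a transcription factor of early kidney mesoderm, rose in stroma and went from 27.8 ± 6.19 to 8.19 ± 0.889 CPM in Six2-lineage cells (difference 2.58 ± 0.25). Igfbp2 and Vcan rose in stroma and had -0.55 ± 0.07 and -0.55 ± 0.07 in Six2-lineage cells (differences 2.54 ± 0.18 and 1.15 ± 0.10). Meis2 had -0.003 ± 0.09 there, with a difference of 0.83 ± 0.12. Foxd1 had -1.93 ± 0.10 in Six2-lineage cells, a difference of 2.08 ± 0.15. For Tcf21 (-0.07 ± 0.10, adjusted p = 0.708) and Wnt4 (-0.17 ± 0.16) the difference was not called. For Ren1 it was -1.74 ± 0.78 and not called (adjusted p = 0.152), and -2.59, called, without Six2 WT replicate 2 (also called, at -1.72, with no low-count filter), against -0.50 without Six2 T1 replicate 1.

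**Figure D5:**
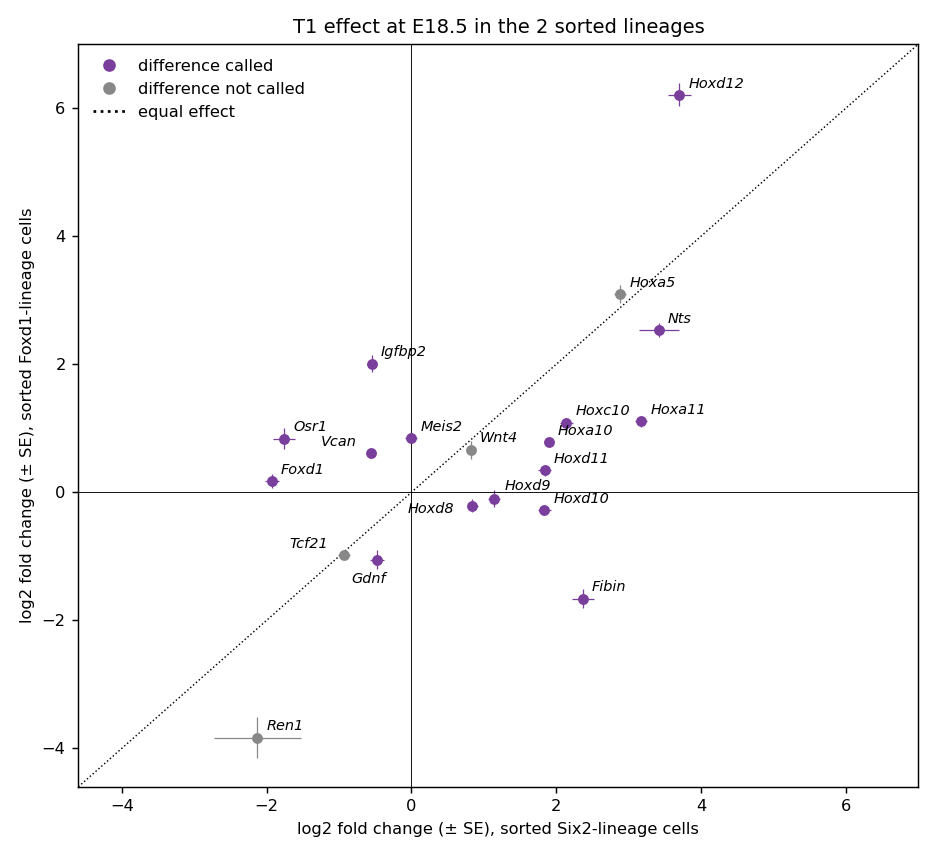
Log2 fold change with SE of 20 genes in sorted Foxd1-lineage cells against sorted Six2-lineage cells at E18.5, with the line of equal effect dotted and called differences in purple. Hoxd12, Igfbp2 and Osr1 had a higher effect in stroma and Fibin a lower one, while Hoxa5, Tcf21, Wnt4 and Ren1 show no called difference.

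Whole kidneys of the same Foxd1 genotypes (3 WT and 3 T1) were made with another library kit and hold unmarked cells as well. A list of 6 sex-linked genes summed to 820 to 977 CPM in whole WT and 440 to 541 CPM in whole T1 kidneys. In the sorted Foxd1-lineage cells it summed to 149 to 172 CPM in WT and 148 to 183 CPM in T1. The part of embryo sex in these comparisons was not tested. Of 14723 genes, 1325 had a higher effect in the sorted cells (9%) and 927 a lower one (6.3%), or 1123 and 1371 with library size as the only scaling. Over all genes tested in whole kidneys 2.65% were called higher and 7.53% lower. Of 453 genes called higher in sorted cells and tested in both, 114 were called higher in the whole organ, 25.2% of the sorted and 52.8% of the whole-kidney list. Of 277 called lower, 101 were lower in both (36.5% and 24.0%). Ren1 went from 579.7 ± 123 to 30.03 ± 7.43 CPM (n = 3 each) in whole kidneys, and the difference of 0.47 ± 0.45 was not called (edgeR interaction adjusted p = 0.523). Hoxd12 and Hoxa5 changed more in the sorted cells, by 3.90 ± 0.27 and 2.02 ± 0.17 on the log2 scale, as did Nts (0.82 ± 0.13). Tcf21 fell further in the sorted cells (-0.54 ± 0.09), and Gdnf, at -0.02 ± 0.07 in whole kidneys, differed by -0.99 ± 0.16 (adjusted p = 2.75e-04). For Fn1 the difference was 0.10 ± 0.11 (adjusted p = 0.569) and not called.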

How the data were processed

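Gene counts of 4 WT and 4 T1 libraries of sorted tdT+ Foxd1-lineage cells were taken from the table of raw counts the authors deposited. Per the study's methods, libraries were made with a SMART-seq v4 kit, reads were mapped to mm10 with HISAT2 and counted by HTSeq without strand, and the deposited counts are whole numbers without normalization. The annotation release was not given in the sources used here, and gene symbols and coordinates came from GENCODE. Libraries held 2557443 to 3508381 counts, which limits what can be seen in low genes.

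Groups followed the labels. Genes were kept by edgeR's filterByExpr (minimum count 10, minimum total 15), which left 12717, scaled by TMM and tested two-sided with the quasi-likelihood test of edgeR 4.0.16 in R 4.3.3, with Benjamini-Hochberg adjustment over all genes tested. Calls needed an adjusted p under 0.05 and a fold over 1.5. CPM are counts scaled to the TMM-corrected library total. Differences from sorted Six2-lineage cells and from whole Foxd1 kidneys were interaction terms in a joint fit. No library pair within a group agreed within sampling noise (lowest chi-square per degree of freedom 1.36). The edgeR exact test of the study, DESeq2 1.42.0, other scalings and filters, a replicate block and leaving out each library were the alternatives. The code was tested on simulated data. Columns for other samples were used only in these comparisons.

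The libraries and gene lists were chosen with earlier results of these data known. Genes outside the lists were named from called genes by the largest fold (15 in each direction, at 10 CPM or more and with no overlap between groups) and by the highest mean CPM (10 in each direction). Some genes are not reported here and were left out of the lists.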

Additional observations from a re-analysis of the deposited data

Results flagged for a closer look

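In 70 groups of 4 libraries tested for a library that stood apart (Dixon's test), 2 were found, and chance finds about 1 in 20. Nts in WT had its low library at 179 CPM in WT replicate 4. The summed neural and Schwann markers in WT had a high library at 52.5 CPM in WT replicate 3.

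Of 20 genes whose T1 effect was compared between stroma and Six2-lineage cells, 16 differed by the edgeR interaction test. On the log2 scale, stroma minus Six2 lineage, the difference was 2.08 ± 0.15 for Foxd1, 2.52 ± 0.35 for Hoxd12, 2.54 ± 0.18 for Igfbp2, 2.58 ± 0.25 for Osr1, 1.15 ± 0.10 for Vcan and 0.83 ± 0.12 for Meis2. It was -4.05 ± 0.22 for Fibin. Among other Hox genes it was -1.13 ± 0.10 for Hoxa10, -2.09 ± 0.13 for Hoxa11, -1.07 ± 0.12 for Hoxc10, -1.07 ± 0.12 for Hoxd8, -1.26 ± 0.15 for Hoxd9, -2.13 ± 0.13 for Hoxd10 and -1.52 ± 0.13 for Hoxd11. For Nts it was -0.89 ± 0.26 (adjusted p = 0.0205), -0.92 and not called by DESeq2 and -0.57 and not called without Six2 WT replicate 3. For Gdnf it was -0.59 ± 0.19 (adjusted p = 0.0325), and not called when any of sorted Foxd1 WT replicates 2 and 4, T1 replicates 1, 2 and 3, Six2 WT replicate 2 or Six2 T1 replicate 3 was left out, at -0.61 to -0.48.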

How the results depend on the processing

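The counts of 462 genes higher and 277 lower became 755 and 608 with no fold threshold and 233 and 114 with a fold over 2, as the thresholds by construction admit more or fewer genes. With one library left out they ranged from 398 to 502 and from 237 to 285. Other tests, scalings and filters gave 320 to 583 higher and 207 to 396 lower. The effect differed from Six2-lineage cells upward in 948 to 1287 and downward in 961 to 1218 genes with one library left out, and from whole kidneys in 981 to 1308 and 695 to 983. Of 174 called named genes 138 kept their call under each of the 15 alternatives that gave them a value, and 0 changed sign. The filter of 30 counts gave a value for 148 of them. Col4a2, not called, changed sign without WT replicate 4 and ranged from -0.00311 to 0.175 with one library left out.

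Same-numbered WT and T1 libraries deviated together at r = 0.035, 0.021, 0.002 and 0.093, so the numbers were not taken to pair them. A replicate block gave 468 higher and 287 lower, and 1205 and 1061 for the difference from Six2-lineage cells and 1335 and 909 for that from whole kidneys. Low genes such as Hoxd13 and Hoxa13 were removed by the low-count filter and so were not tested in the main fit. With no low-count filter 3 Hoxd genes were called higher, against 2 in the main fit.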

Other observations

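A list of sterol genes was chosen after the values were seen. Of 22 tested genes of sterol synthesis and uptake 6 fell and 0 rose in T1 stroma (median log2 fold change -0.42). Sqle and Hmgcs1, enzymes of cholesterol synthesis, fell from 53.4 ± 2.16 to 31.0 ± 1.58 CPM (-0.78 ± 0.09) and from 139 ± 8.74 to 87.0 ± 10.9 CPM (-0.68 ± 0.09). In sorted Six2-lineage cells 0 of 23 fell and 0 rose, and the difference between lineages was called for 5 of 23, 3 lower and 2 higher in stroma. Over all genes tested for this difference, 7.63% were lower and 8.25% higher in stroma. In whole Foxd1 kidneys 3 of 23 fell and 0 rose (median -0.35), where 7.53% of all genes tested were called lower.

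A list of imprinted genes was also chosen after the values were seen. Of 25 tested 1 rose, Nap1l5 (0.890 ± 0.678 to 12.5 ± 0.517 CPM, 3.85 ± 0.37), and 6 fell (median 0.03), among them Zim1 (-1.67 ± 0.21), Asb4 (-1.13 ± 0.14), Peg10 (-0.93 ± 0.11) and Plagl1 (-0.87 ± 0.12). Nap1l5 passed the low-count filter through its T1 libraries alone, so it could only be seen to rise. The count that rose was 3 without WT replicate 3 or T1 replicate 1 and 2 without WT replicate 4.

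Of the remaining lists, that of neuropeptides and hormones also held vascular growth factor genes and Ptgs1, a cyclooxygenase gene. Of its 17 tested genes 3 rose (Nts, Npy and Pgf) and 4 fell (2 without WT replicate 3). Those that fell were Angpt1, Vegfd, Angpt2 and Ptgs1, none of them a neuropeptide or hormone gene. Of 5 Fat and Dachsous cadherins 1 rose. Of 9 interferon response genes 1 rose and 3 fell, a count of 0 without WT replicate 3, 1 without WT replicate 1 or T1 replicate 4 and 5 without T1 replicate 2. Of 7 histocompatibility genes and 4 tested red cell markers 0 were called, and of 10 renal vesicle markers 1 fell (Dkk1). The adrenal and gonad list had 1 tested gene, Mc2r, which fell (-2.17 ± 0.36), and the list summed to 9.43 to 14.2 CPM in WT and 4.72 to 6.33 CPM in T1. Mc2r was near the low-count filter and was not tested with a filter of 30 counts. A gene that passes the filter through its WT libraries alone can only be seen to fall.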
